A study of Mus musculus with 6 samples.

Results

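The genes described here code for proteins of the cornified envelope and for the enzymes that join them. They are 10 genes taken by name: the envelope precursors Ivl (involucrin), Lor (loricrin), Sprr1a, Sprr1b and Sprr3, the plakins Evpl (envoplakin) and Ppl (periplakin), and the transglutaminases Tgm1, Tgm3 and Tgm5. All 10 of 18193 genes named on the array were measured, through 14 of 45037 probe sets.

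The study took RNA from back skin, 1 Affymetrix array per mouse, of 6 female littermates aged 2.5 postnatal days, on a mixed FVB/N and C57BL/6 background. The 3 caNrf2 mice are K5cre-caNrf2 animals, given as tg/tg in the protocol and as tg/g in the genotype cell, in which keratin 5-driven Cre leads to a constitutively active Nrf2. The 3 control mice are K5cre-wt, tg/wt, so the controls carry K5cre too. The treatment cell names caNrf2 on all 6 samples, so groups were taken from the titles, which also hold the word "strong", not explained in the labels. Keratin 5 marks basal keratinocytes of epidermis and follicle, whose descendants inherit a Cre event, whereas the skin sample also holds dermis, fat and muscle.

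The cornified envelope is the insoluble protein shell that replaces the plasma membrane of a dying keratinocyte. Involucrin, envoplakin and periplakin are laid down first beneath the membrane, and loricrin and small proline-rich proteins are then cross-linked onto this scaffold. Transglutaminases make the cross-links, as bonds between glutamine and lysine side chains. Mice that lack a single structural protein of the envelope often show little barrier defect, and Nrf2 is known to act in the response to loss of loricrin.

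The sequences just upstream of the start sites of 5 members are shown because these genes moved in different directions or gave no call: Ivl fell, Tgm3 rose, Sprr1b lay higher without a call, and Lor and Sprr1a differed little. Each run is the 150 bases before the RefSeq start site, 5′ to 3′ on the gene's strand in build GRCm38.p6. Ivl lies at chr3:92573736-92573885, Lor at chr3:92083143-92083292, Sprr1a at chr3:92485882-92486031 and Sprr1b at chr3:92438780-92438929, all on the minus strand, and Tgm3 at chr2:130012190-130012339 on the plus strand. Capitals mark matches to the AP-1 letters TGANTCA, the antioxidant response element core TGACNNNGC and the TATA letters TATAAA.
Ivl: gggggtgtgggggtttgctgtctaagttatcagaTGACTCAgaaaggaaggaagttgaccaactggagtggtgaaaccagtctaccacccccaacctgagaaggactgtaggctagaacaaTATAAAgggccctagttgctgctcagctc
Lor: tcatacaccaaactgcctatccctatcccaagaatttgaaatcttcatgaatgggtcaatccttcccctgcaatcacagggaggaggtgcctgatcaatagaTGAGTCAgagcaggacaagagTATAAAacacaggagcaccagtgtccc
Sprr1a: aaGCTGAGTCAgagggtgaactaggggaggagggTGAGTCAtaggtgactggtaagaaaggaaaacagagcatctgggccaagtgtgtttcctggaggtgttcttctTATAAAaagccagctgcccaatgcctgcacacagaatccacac
Sprr1b: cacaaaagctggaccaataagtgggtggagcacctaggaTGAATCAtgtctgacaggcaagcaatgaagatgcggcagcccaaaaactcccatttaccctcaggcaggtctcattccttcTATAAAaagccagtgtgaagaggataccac
Tgm3: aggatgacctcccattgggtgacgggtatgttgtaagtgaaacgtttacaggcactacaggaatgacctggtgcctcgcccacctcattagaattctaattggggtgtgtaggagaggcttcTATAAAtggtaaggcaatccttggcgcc

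Motifs were searched in windows of 250 bases before and 50 after each start site, of which the RefSeq table held 9 for 8 members. Matches to TGANTCA, a loose form of the site of AP-1 dimers, lay in the windows of Ivl, Lor, Sprr1a and Sprr1b. These were 4 of 8 genes or 4 of 9 windows, beside 7.81% of all 32851 windows. The match reads TGACTCA in Ivl, TGAGTCA in Lor and Sprr1a, and TGAATCA in Sprr1b. TATAAA on the gene's strand lay in the windows of Ivl, Lor, Sprr1a, Sprr1b, Sprr3 and Tgm3, 6 of 8 genes or 6 of 9 windows, and in 8.32% of all windows. TGACNNNGC, searched on both strands as the core bound by Nrf2 with small Maf proteins, matched for Sprr1a and Tgm5, and in 12.4% of all windows. The Sprr1a match, on the opposite strand from -148 to -140, overlaps the AP-1 match from -146 to -140, where -1 is the base before the start site. The grainyhead letters AACNNGTT matched for Tgm5 alone among the members and in 4.20% of all windows. The Klf letters CACCC matched for 6 of 8 genes or 7 of 9 windows, and in 57.5% of all windows. A match here is a description of letters and not a bound site.

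Of the 10 members, Tgm3 rose and Ivl fell in caNrf2 skin, and the other 8 did not pass the test. Across all 18193 genes 2.26% were called higher and 1.39% lower (limma on log2 RMA intensity, Benjamini-Hochberg adjusted p under 0.05). The groups did not overlap in 4 members, with Tgm3 and Sprr1b higher and Ivl and Tgm5 lower on all caNrf2 arrays. Over all genes such separation was found for 12.7% as higher and 13% as lower. The median log2 fold change of the 10 members was -0.029, beside -0.0041 for all genes. By size of log2 fold change, 1.03% of all genes moved more than Ivl, 1.68% more than Tgm3 and 2.79% more than Sprr1b, but 49.5% moved more than the next member, Evpl. In bulk skin, fewer cells of a type and less RNA per cell cannot be told apart.

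**Figure D1:**
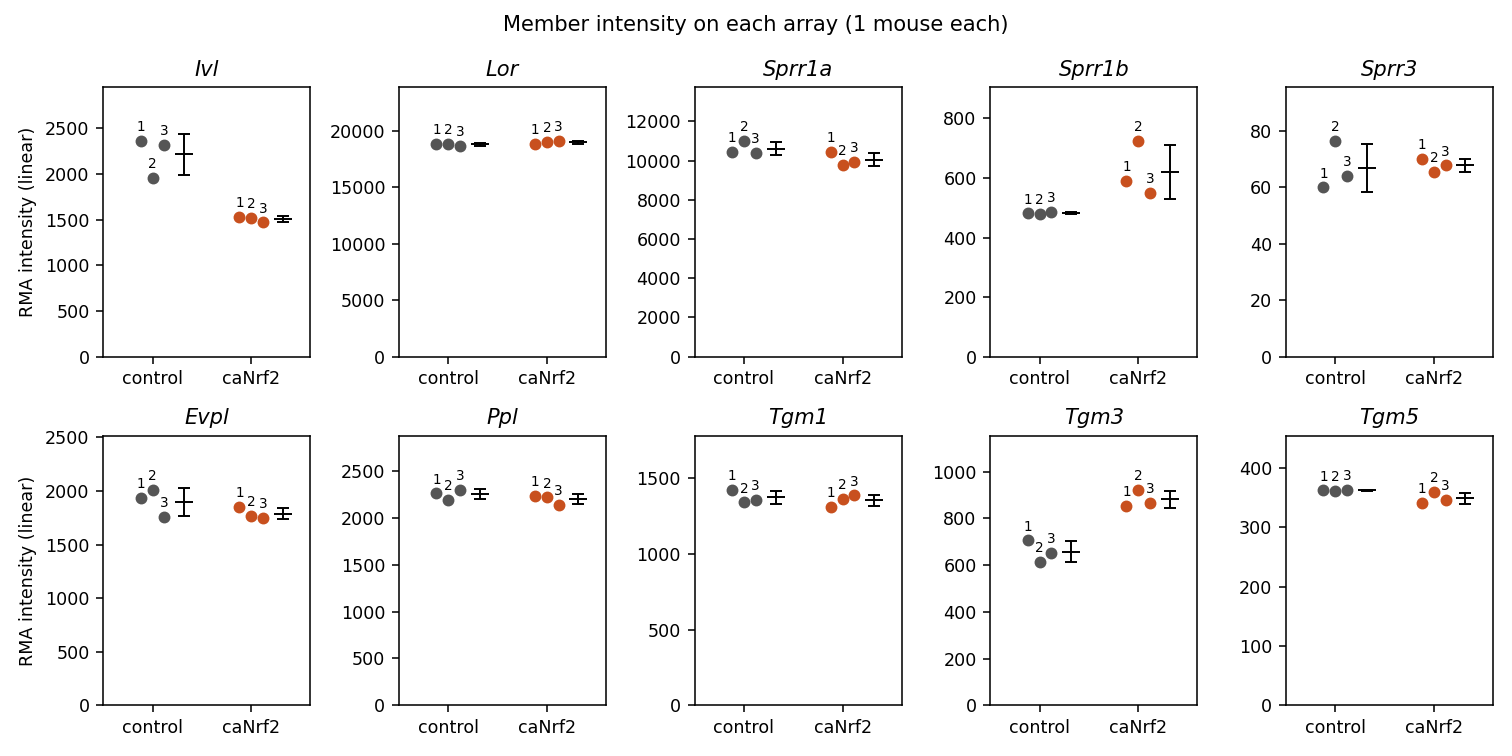
RMA intensity (linear, axis from 0) of the 10 members on each of the 6 arrays, with 3 control mice in grey and 3 caNrf2 mice in orange, numbered by replicate, and the mean and SD of each group as black marks. Ivl lies between 1471 and 1532 in caNrf2 and between 1961 and 2361 in control skin, Tgm3 lies higher on all caNrf2 arrays, and Lor is nearly level.

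As a check of the labels, Nfe2l2, the gene of Nrf2, rose from 775 ± 49.5 to 1200 ± 56.4, and Nqo1, a quinone reductase controlled by Nrf2, from 67.7 ± 4.36 to 1419 ± 99.3 (mean intensity ± SD, n = 3). Whether the Nfe2l2 probe set detects the transgene was not tested, and the mean of its 2 probe sets gave a smaller rise of 0.40 than the 0.63 on the log2 scale of the brighter probe set. Medians of the 6 arrays ran from 80.3 to 81.6, and Pearson correlations between arrays from 0.9948 to 0.9984. The quartiles separated by group. The upper quartile was 334 to 341 in control and 325 to 328 in caNrf2 skin, and the lower 23.8 to 24.3 and 24.9 to 25.4. In females the 20 probe sets of Y-linked genes gauge the background, with group means from 6.46 to 61.6 and a median of 11.8. Of these, 14 had both group means under 20, so 61.6 stands for the brightest and not for a typical one. Over all genes 412 were higher and 252 lower. With each array shifted by the mean of Krt5, Krt14, Krt1 and Krt10 these became 315 and 540, so the split over all genes depends on the scale, while Ivl and Tgm3 kept their calls.

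Among the precursors, Ivl was the member that fell. Involucrin is a glutamine-rich rod laid down at the start of envelope assembly. Its brighter probe set read 2361, 1961 and 2324 in control replicates 1, 2 and 3 and 1532, 1523 and 1471 in caNrf2 replicates 1, 2 and 3. All caNrf2 arrays lay below all control arrays, and the caNrf2 arrays were closer together than the controls, of which replicate 2 was the lowest. The mean went from 2215 ± 221 to 1509 ± 32.5 (SD, n = 3), and the log2 fold change ± SE was -0.55 ± 0.08 in limma at adjusted p = 0.00430. This is 0.683-fold with a 95% interval from 0.605 to 0.771, and it ranks 50th among the falls of all genes.

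The dimmer Ivl probe set gave 448, 367 and 456 in control and 268, 288 and 279 in caNrf2 skin. It repeats the pattern, including the lower control replicate 2, and so both probe sets moved by a like amount on separate probes of the same RNA. Its log2 fold change was -0.60 ± 0.09, with adjusted p = 0.00963 in limma over all 45037 probe sets. In that fit 1.04% of probe sets were called higher and 0.633% lower, and of the 14 member probe sets 1 was called higher and 2 lower. The Ivl call held in all 15 alternatives tried, at log2 fold changes from -0.63 to -0.50 and adjusted p up to 0.0294.

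Lor codes for loricrin, the glycine-rich protein that makes up most of the envelope's mass. Its brightest probe set read 18871, 18866 and 18643 in control and 18812, 19004 and 19081 in caNrf2 skin. The groups overlapped, and the log2 fold change was 0.01 ± 0.05 (limma, adjusted p = 0.918), with a 95% interval of the fold from 0.928 to 1.10. This probe set stood near the top of the scale, at 87.6% to 93.3% of the brightest probe set of its array, with 6 to 8 probe sets brighter. Whether the signal there still follows RNA amount was not tested. A further Lor probe set at 52.6% to 60.3% of the top read 10805, 10785 and 11606 in control and 10966, 12578 and 11744 in caNrf2 skin. Its log2 fold change was 0.09 ± 0.07 (limma over probe sets, adjusted p = 0.568). The last, with all arrays from 34.7 to 49.1 and so no brighter than the brightest Y-linked probe set, gave -0.15 ± 0.11. No Lor probe set passed, and the direction of the gene's estimate turned with 2 of the 15 alternatives.

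The small proline-rich proteins act as flexible cross-bridges between other envelope proteins. Sprr1b read 481, 479 and 485 in control and 590, 723 and 550 in caNrf2 skin. All caNrf2 arrays were higher, and they were spread far more widely than the controls, with caNrf2 replicate 2 the highest. The mean went from 482 ± 3.28 to 621 ± 91.0 (SD, n = 3), a log2 fold change of 0.36 ± 0.09 that did not pass (limma, adjusted p = 0.0745). Its 95% interval of the fold, from 1.11 to 1.48, takes no account of the other genes tested. The gene passed in 1 of 15 alternatives, with an intensity trend and robust variances (adjusted p = 0.0170), and the adjusted p of the others ran up to 0.189. Without caNrf2 replicate 2 the log2 fold change was 0.24.

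Sprr1a, a close relative of Sprr1b, read 10428, 10988 and 10392 in control and 10435, 9781 and 9917 in caNrf2 skin. The groups overlapped through caNrf2 replicate 1, and the log2 fold change was -0.08 ± 0.06 (limma, adjusted p = 0.490), with an interval of the fold from 0.864 to 1.04. Its probe set also sat high on the scale, at 46.9% to 53.7% of the brightest of its array. Whether either probe set detects the transcript of the other gene was not tested. Sprr3, best known from oral and oesophageal epithelium, read 59.9, 76.2 and 64.0 in control and 70.1, 65.3 and 67.7 in caNrf2 skin. These values lie around 61.6, the highest group mean of a Y-linked probe set, with control replicate 1 below it, and above 11.8, the median of those probe sets. The groups overlap, with a log2 fold change of 0.03 ± 0.09 (limma, adjusted p = 0.890).

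The plakins link keratin filaments to the envelope and the desmosome, and form the scaffold together with involucrin. Evpl read 1933, 2011 and 1757 in control and 1850, 1765 and 1751 in caNrf2 skin. Control replicate 3 was as low as the caNrf2 arrays, so the groups overlapped. The log2 fold change was -0.09 ± 0.07 (limma, adjusted p = 0.507), with a 95% interval of the fold from 0.849 to 1.05. Its partner Ppl read 2259, 2190 and 2298 in control and 2232, 2218 and 2134 in caNrf2 skin, again with overlap. Its log2 fold change was -0.04 ± 0.06 (limma, adjusted p = 0.766), and its interval from 0.894 to 1.07. A fall as large as that of Ivl lies outside the intervals of both plakins.

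Of the transglutaminases, Tgm3, an enzyme of upper epidermis and hair follicle that is activated by proteolysis, was the member that rose. Its brighter probe set read 706, 614 and 653 in control and 853, 923 and 868 in caNrf2 skin. Every caNrf2 array lay above every control array, and the spread was alike in both groups. The mean went from 658 ± 46.0 to 882 ± 36.6 (SD, n = 3), a log2 fold change of 0.42 ± 0.07 (limma, adjusted p = 0.0101), or 1.34-fold with a 95% interval from 1.20 to 1.49. The dimmer probe set read 346, 328 and 317 in control and 390, 452 and 423 in caNrf2 skin. It also separated the groups, with a log2 fold change of 0.35 ± 0.08, but did not pass in limma over all probe sets (adjusted p = 0.0532). The Tgm3 call held in all 15 alternatives, at log2 fold changes from 0.38 to 0.48 and adjusted p up to 0.0423.

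Tgm1, the membrane-anchored transglutaminase whose loss causes lamellar ichthyosis, read 1424, 1340 and 1359 in control and 1312, 1362 and 1387 in caNrf2 skin. The groups overlapped, with a log2 fold change of -0.02 ± 0.06 (limma, adjusted p = 0.868) and an interval of the fold from 0.900 to 1.08. Tgm5, whose loss causes superficial peeling of acral skin, read 362, 361 and 363 in control and 341, 359 and 346 in caNrf2 skin. All its caNrf2 arrays were lower, but the shift was small, at -0.05 ± 0.06 (limma, adjusted p = 0.620), and its interval ran from 0.883 to 1.05. A rise as large as that of Tgm3 lies outside the intervals of both.

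**Figure D2:**
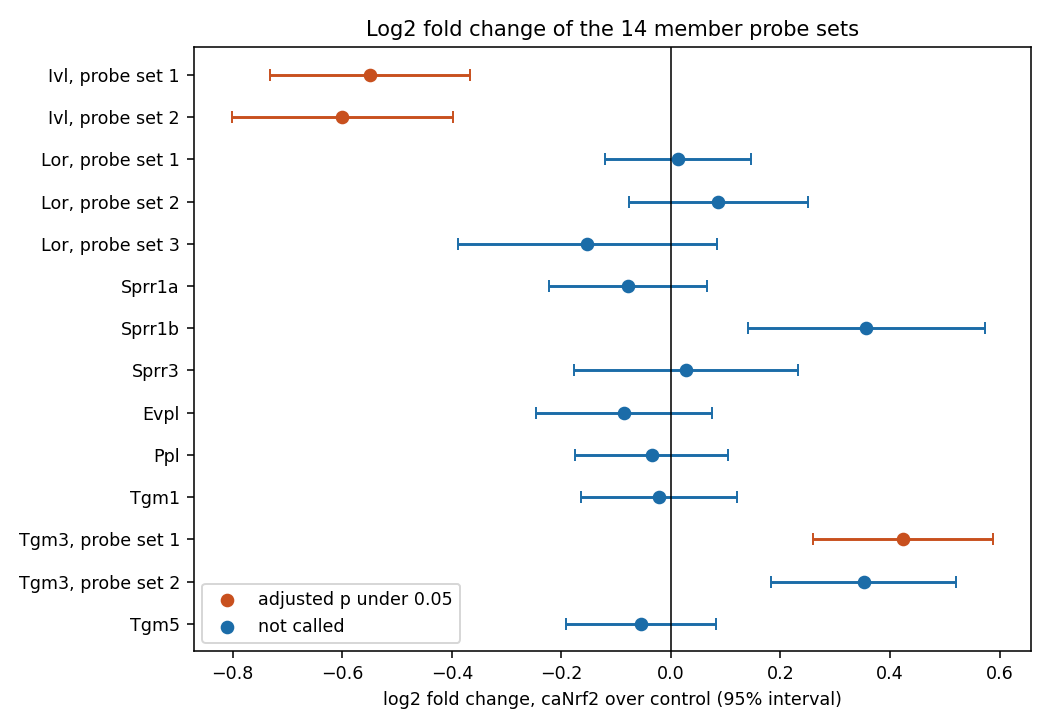
Log2 fold change, caNrf2 over control, of the 14 member probe sets with 95% intervals from limma over all probe sets, probe sets of a gene ordered from bright to dim. Both Ivl probe sets (-0.55 and -0.60) and the brighter Tgm3 probe set (0.42) passed and are in orange, and those that were not called are in blue.

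Ratios within an array compare members free of any factor that scales the whole array. The log2 ratio of Ivl to Lor went from -3.09 ± 0.15 to -3.65 ± 0.04 (SD, n = 3), a difference of -0.56. The ratio of Tgm3 to Tgm1 was higher by 0.45, that of Tgm3 to Tgm5 by 0.48 and that of Sprr1b to Sprr1a by 0.43. In these 4 of 5 pairs the groups did not overlap, whereas the ratio of Evpl to Ppl differed by -0.05 with overlap. A two-sided exact permutation test of 3 against 3 arrays cannot go below 0.1, which those 4 pairs reached (0.125 after adjustment over the 5 pairs), so it decides nothing here. The pairs were formed with the changes of Ivl, Tgm3 and Sprr1b known, so these differences restate the fold changes given above, and the Lor value rests on the probe set near the top of the scale.

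Keratinocyte markers were read beside these changes. Called counts of these and the following marker lists stand beside 2.26% higher and 1.39% lower over all genes. Here and below, counts at an unadjusted p under 0.05 have no share over all genes beside them, and so no background. The same holds for summed intensities. Of 6 suprabasal markers, such as Krt1 and Krt10, none was called by limma, with 0 at an unadjusted p under 0.05, and their summed intensity was 72756 to 75346 in control and 74791 to 77374 in caNrf2 skin. Krt1 read 17761 to 18642 and Krt10 19312 to 20875 over the 6 arrays, the largest values in this sum. Like Lor they stood near the top of the scale, and whether the signal there follows RNA amount was not tested. Krt77, a suprabasal keratin outside this list, is given below. Of 6 basal markers 1 was lower, Krt15 at -0.30 ± 0.06 (limma, adjusted p = 0.0209), and the sums were 33533 to 34467 and 33604 to 33831. The integrin Itgb4, named after its value was seen, lay at 0.33 ± 0.08 with no overlap between groups but did not pass (limma, adjusted p = 0.0656). Krt15 did not pass when caNrf2 replicate 1 or 3 was left out, nor when control replicate 1 or 2 was, the largest adjusted p being 0.0824. With each array shifted by the 4 keratins named earlier, Ivl gave -0.60 and Tgm3 0.38, both called. Krt1 and Krt10 are among these keratins, so the shift has the same limit. The shift itself differed by group, from -0.028 to -0.020 on control and from 0.017 to 0.031 on caNrf2 arrays (log2). Krt14, a basal marker in it, had means of 12229 and 13145 without overlap, but was not called (limma, adjusted p = 0.314). Over all genes 12.7% were higher without overlap.

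Tgm3 and the plakins are also made in the hair follicle, whose markers were lower in part. Of 8 inner root sheath markers 2 were lower and none higher, Krt26 at -0.53 ± 0.08 and Krt72 at -0.33 ± 0.07 (limma, adjusted p = 0.00425 and 0.0325). At an unadjusted p under 0.05 there were 6 of the 8, all lower and without overlap between groups, and the median of the list was -0.21. Over all genes 13% were lower without overlap. The summed intensity of the 8 markers was 60748 to 61535 in control and 53475 to 56154 in caNrf2 skin. Krt72 did not pass when caNrf2 replicate 2 or 3 was left out, nor when control replicate 1 or 2 was, the largest adjusted p being 0.126. Of 9 hair shaft markers none was called by limma, with 5 at an unadjusted p under 0.05. All 9 had log2 fold changes below 0, from -0.35 to -0.057, and the sums, 22684 to 27548 and 21526 to 23088, overlapped. The part of these cells in the member values was not tested.

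Markers of oral and oesophageal epithelium, where Sprr3 is abundant, were dim. Their group means lay above 11.8, the median of the Y-linked probe sets, and at most just above 61.6, the highest. Krt4 read 59.0 in control and 62.8 in caNrf2 skin and Krt13 13.7 and 14.2 as group means. The other 2 measured, Krt76 and Krt24, were higher, from 34.5 to 54.9 and from 43.1 to 54.7, still inside the range of Y-linked probe sets. Krt76 did not pass when control replicate 1 or 3 was left out, nor Krt24 when caNrf2 replicate 1 or 3 or control replicate 2 was, the largest adjusted p being 0.0612. The summed intensity of these 4 was 145 to 155 in control and 178 to 201 in caNrf2 skin.

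Markers of pigment cells were lower in part, Mlana at -0.38 ± 0.09 and Mitf at -0.36 ± 0.08 (limma, adjusted p = 0.0463 and 0.0456). These were 2 of 6 melanocyte markers, all 6 were lower at an unadjusted p under 0.05, and the median was -0.22. Their summed intensity was 11554 to 12216 in control and 9765 to 10798 in caNrf2 skin. Mlana did not pass in 8 of 15 alternatives and Mitf in 9, of which 5 for each left out 1 array, at adjusted p up to 0.158 and 0.130. Of 5 sebocyte markers 1 was lower, the elongase Elovl3 at -0.38 ± 0.07 (limma, adjusted p = 0.0150), which did not pass without caNrf2 replicate 3 or control replicate 1 (up to 0.0674). Of 4 adipocyte markers 1 was lower, the hormone gene Lep at -0.58 ± 0.07 (limma, adjusted p = 0.000946), which passed in all 15 alternatives, with a median of the list of -0.0099. Of 6 immune markers 1 was higher, the Langerhans cell gene Cd207 at 0.36 ± 0.08 (limma, adjusted p = 0.0360), which did not pass once any of the 6 arrays was left out (up to 0.109). The summed intensity of each of these 3 lists overlapped between groups, and the part of these cells in the member values was not tested. In the remaining lists, none of 6 fibroblast, 6 muscle, 5 endothelial, 5 mast cell or 2 Schwann cell genes was called by limma, and among them 1 muscle gene had an unadjusted p under 0.05. The fibroblast sum was 71072 to 73629 in control and 68966 to 70496 in caNrf2 skin, without overlap.

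Ivl, Lor, Sprr1a, Sprr1b and Sprr3 lie in the epidermal differentiation complex, a cluster of envelope and S100 genes on chromosome 3. In RefSeq order from S100a1 towards S100a11, where the gene table holds 69 protein-coding genes, 48 genes were measured, the pseudogene Sprr2j-ps among them. Genes reached only by probe sets with several symbols or none are missing. Of the 43 that are no members, 10 were higher, 1 was lower and 32 were not called, with a median of 0.15 on the log2 scale. This stands beside 2.26% higher and 1.39% lower over all genes. Of the 5 members there, 1 was lower and 4 were not called. The members Sprr1b, Sprr3, Sprr1a and Ivl follow each other in this order, at 0.36, 0.03, -0.08 and -0.55. Before them stands Sprr2k at 0.34 ± 0.09, which did not pass (limma, adjusted p = 0.0732), and after Ivl the sperm gene Smcp, with both means near 12. Lor stands apart from these, between S100a7l2, also near background with means of 10.2 and 10.5, and Prr9 at -0.19 ± 0.06 (limma, adjusted p = 0.107).

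The fall of Ivl was thus flanked by clusters whose called genes rose. The Sprr2 genes before it held 3 called rises, and of the 15 Lce genes after it 5 were higher and none lower. The single other fall in the complex was that of Tchhl1 at its far end, at -0.45 ± 0.06 (limma, adjusted p = 0.00335). The 11 measured S100a genes gave no call in limma, with 2 at an unadjusted p under 0.05, and a median of -0.08.

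**Figure D3:**
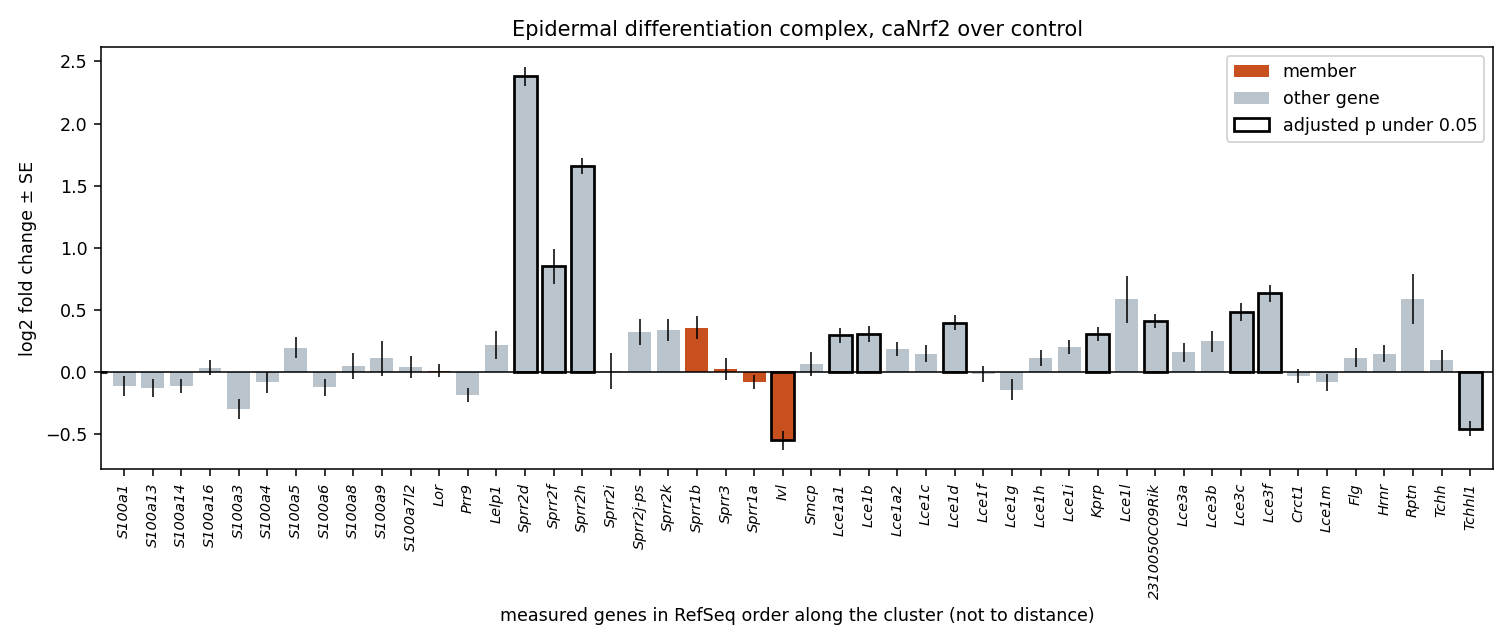
Log2 fold change ± SE, caNrf2 over control, of the 48 measured genes of the epidermal differentiation complex in RefSeq order (order only, not distance), with members in orange, other genes in grey and black outlines for adjusted p under 0.05. Ivl (-0.55) points down between the Sprr genes and the Lce genes, whose called members point up.

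The other genes of envelope assembly, taken from lists that were not tested as sets, are read against 2.26% higher and 1.39% lower over all genes. Of 5 measured relatives of the transglutaminases none was called and 0 had an unadjusted p under 0.05, the smallest p being that of F13a1, the clotting transglutaminase (-0.10 ± 0.09; limma, adjusted p = 0.576). Of 5 other plakins, desmoplakin and plectin among them, none was called and 1 had an unadjusted p under 0.05, epiplakin Eppk1 at -0.17 ± 0.06 (limma, adjusted p = 0.156). Tgm3 was thus the single transglutaminase gene called among 8 measured. Of 13 proteases and inhibitors that process transglutaminases and other envelope proteins, none was called by limma and 4 had an unadjusted p under 0.05. Among them Ctsd, the protease cathepsin D that cleaves Tgm1, lay at 0.22 ± 0.06 (limma, adjusted p = 0.0808), and the list ran from -0.18 to 0.30. With an intensity trend and robust variances 2 of the 13 were called higher, and with an offset of 16, 1.

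Several other precursors rose. All genes called in these lists of Sprr genes and other envelope proteins lie in the epidermal differentiation complex and were already counted there. Of 5 other Sprr genes measured 3 rose, Sprr2d by 2.38 ± 0.08, Sprr2h by 1.66 ± 0.06, and Sprr2f, for which no fold is given because both means were no brighter than Y-linked probe sets. Sprr1b gave 0.36, and its difference from these genes was not tested. Of 38 other envelope proteins listed 30 were measured, of which 6 were higher, 1 was lower and 23 were not called, with a median of 0.14. Lce3f and Lce1d, late envelope proteins, rose by 0.63 ± 0.07 and 0.40 ± 0.06, and Tchhl1, a fused S100 protein, fell as given above. The Lce3f control mean, 57.2, lay below 61.6, the highest group mean of a Y-linked probe set, and its caNrf2 mean, 88.9, above it. The higher count was 3 without caNrf2 replicate 3, control replicate 1 or control replicate 2.

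Of 15 genes of desmosomes and their keratins 3 were lower and none was higher, with a median of 0.04. The desmocollin Dsc2 fell by 0.67 on the log2 scale, the plakophilin Pkp2 by 0.42 and Krt77, a suprabasal keratin, by 0.61 (limma, adjusted p = 0.000399, 0.0115 and 0.00326). At an unadjusted p under 0.05, 5 were lower and 1 was higher. The 12 without a call ran from -0.27 for Dsg2 to 0.40 for Dsg1b, a desmoglein of upper epidermis, both named after their values were seen. With the mean of all probe sets Dsc2 gave -0.43 and Pkp2 -0.24, and the Pkp2 call was lost without control replicate 1 (adjusted p = 0.0518). Of 12 genes of the lipid envelope, the ceramide layer bound to involucrin and its neighbours, 2 were higher and none lower, with a median of 0.14. The fatty acid hydroxylase Cyp4f39 rose by 0.48 ± 0.06 and the ceramide synthase Cers3 by 0.27 ± 0.06 (limma, adjusted p = 0.00108 and 0.0480). Cers3 did not pass once any of the 6 arrays was left out, nor with the keratin shift, with all probe sets tested and with the replicate block, at adjusted p up to 0.163.

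Of 35 regulators of envelope genes 5 were higher, none was lower and 30 were not called, with a median of -0.06. With an intensity trend and robust variances 2 were called lower, and with the keratin shift 1. The nuclear receptor Ppard rose by 1.01 ± 0.07 and the AP-1 subunit Fosl1 by 0.93 ± 0.09 (limma, adjusted p = 4.58e-05 and 0.000277), and Nfe2l2 by the amount given above. A dimmer probe set of Ppard brought the mean of its probe sets to 0.62. The remaining 2, named after their values were seen, were Keap1 at 0.37 ± 0.06 and the Ets factor Ehf at 0.32 ± 0.07 (limma, adjusted p = 0.0104 and 0.0449). Ehf did not pass when any array other than control replicate 2 was left out, nor in 4 other alternatives, and reached an adjusted p of 0.161. At an unadjusted p under 0.05, 6 of the 35 were higher and 6 lower, with no share of all genes at that cut to set beside them. The 30 without a call ran from -0.24 for Maf (limma, adjusted p = 0.0940) to 0.14 for Grhl3 (0.205), a grainyhead factor, both named after their values were seen.

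**Figure D4:**
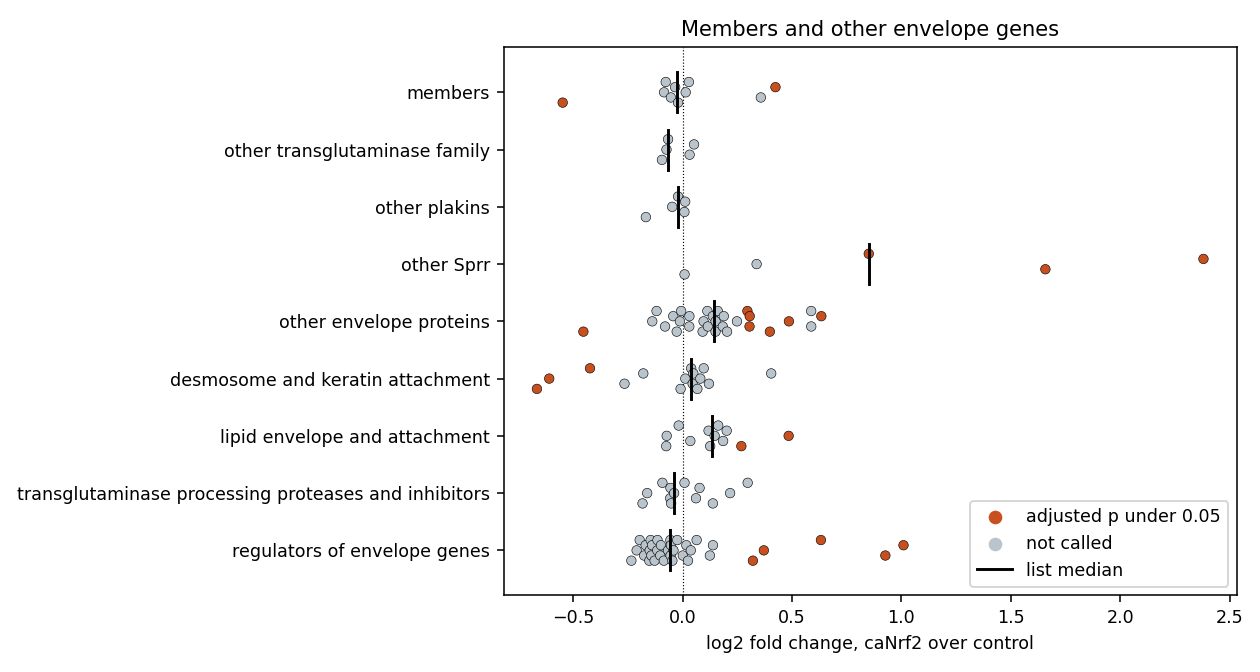
Log2 fold change, caNrf2 over control, of each measured gene of the members and of 8 lists of related genes, 1 point per gene, orange for adjusted p under 0.05 and a black line at each median. Members lie around -0.03 with Ivl and Tgm3 at the edges, while other Sprr genes reach 2.38.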

How the data were processed

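Whole skin of 3 caNrf2 and 3 control mice was measured on Affymetrix arrays, from 2 ug of labelled RNA each, per the labels' protocols. The intensity values deposited by the authors are linear. Per the submitters' processing notes they come from RMA, whose version is not given in the sources used here. RMA makes array distributions nearly equal, so a shift of most genes in 1 direction could not be seen.

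Probe sets were named from the platform annotation, and 34741 of 34945 with a single symbol were updated through the Entrez identifier (RefSeq, GRCm38.p6). The probe set with the highest mean stood for a gene. The 932 probe sets with several symbols and the 9160 with none stood for no gene, but were kept in the fit over probe sets. Log2 intensities were fitted with limma 3.58.1 (R 4.3.3, lmFit and eBayes, group as the only term, 5.52 prior and 4 residual degrees of freedom), with two-sided p-values adjusted by Benjamini-Hochberg over all genes or all probe sets. The fit was also run on simulated data with independent noise for each gene. These lack the correlation between genes of real arrays, and no result here rests on them. The 3 arrays per group limit the precision. Intervals are 95% from the fit, unadjusted. Every member was tested, with no filter on dim genes.

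The members and lists were chosen with earlier results of these data known. Named genes are all members, Nfe2l2, Nqo1, the neighbours of members in the complex, and the called genes of each list (up to 3, or 2 for marker lists, by smallest p, else the gene with the smallest p), with exceptions marked. Alternatives were variance models, array weights, an offset of 16, a mean intensity of at least 32, further quantile normalization, a keratin shift, other uses of probe sets, a replicate block, and each array left out.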

Additional observations from a re-analysis of the deposited data

How the results depend on the processing

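The counts of 1 member higher (Tgm3) and 1 lower (Ivl) were the same in every alternative, with one exception: with an intensity trend and robust variances Sprr1b passed too, which made 2 members higher. Leaving out each array in turn gave 1 and 1 throughout. Over all genes, 274 were higher and 143 lower with all probe sets tested, 500 were lower with an intensity trend and robust variances, and 540 were lower with the keratin shift. Without each array the higher count ran from 226 to 316 and the lower from 72 to 196. The median of the epidermal differentiation complex was 0.11, and 0.066 with the keratin shift, which moved the median of all genes from -0.0041 to -0.052.

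Estimates near 0 changed sign without a call. Lor gave -0.035 with the keratin shift and -0.018 with the mean of its probe sets. Sprr3 gave -0.016 with further quantile normalization, -0.020 with the keratin shift and -0.046 to 0.128 without each array. Tgm1 gave 0.0083 with further quantile normalization and -0.040 to 0.0039 without each array. The neighbour S100a7l2 gave -0.0064 with the keratin shift and -0.036 to 0.113 without each array, and Smcp -0.039 to 0.154. The cause was not tested.

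The titles number the mice 1 to 3 in each group, but nothing in the labels ties equal numbers to each other. Deviations of same-numbered arrays from their group means correlated at 0.033, 0.135 and 0.093, and those of differently numbered arrays from -0.150 to 0.070. The best match of caNrf2 replicates 2 and 3 was the same-numbered control, and that of caNrf2 replicate 1 was control replicate 3. Whether the numbers stand for pairs was not tested. With the replicate block 353 genes were higher and 236 lower, and Ivl and Tgm3 stayed called (adjusted p = 0.0154 and 0.0361).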
